A study of Mus musculus with 10 samples.

Results

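Arid5b and Arid5a encode paralogous proteins with an AT-rich interaction domain (ARID), a fold that binds DNA. ARID5B is known as a chromatin factor that works with the histone demethylase PHF2, which removes methyl groups from lysine 9 of histone H3, and human ARID5B is linked to childhood acute lymphoblastic leukaemia and to the TAL1 circuit of leukaemic T cells. ARID5A is known mainly as an RNA-binding protein that protects mRNAs of inflammatory genes such as Il6 and Stat3 from decay, against the nuclease Regnase-1. SATB1, the factor removed in this study, likewise binds AT-rich DNA and organises chromatin loops in T cells.

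ATAC-seq, which reads out open chromatin as the sites where a transposase can insert, was run on naive CD4 T cells of mouse spleen and lymph node, sorted as CD3+CD4+, CD25-negative, CD44-low or -negative and CD62L+. The KO group held 5 libraries from mice with floxed Satb1 alleles and the CD4-CreERT2 transgene (Satb1fl/fl x CD4-CreERT2wt/+) that had been given tamoxifen, which activates this Cre recombinase in CD4-expressing cells. The WT group held 5 libraries from untreated mice of that same genotype, so all 10 libraries carried the floxed alleles and the transgene. Tamoxifen was given in the KO group alone, and its effect and that of Satb1 deletion cannot be told apart. Whether libraries came from separate mice is not in the labels, so the spread and the tests cover these libraries only, which may differ technically. They give no age, sex or batch, and no floxed exons of Satb1. Summed over its peaks Satb1 had 428 CPM in KO against 373 CPM in WT and was called higher in KO (log2 fold change 0.19 ± 0.048 SE, edgeR adjusted p = 0.0147). That call ended in 8 of 21 other settings, among them without Sample_2271_KO, Sample_2273_WT or Sample_2277_WT (adjusted p 0.0521 to 0.0953). These peaks do not check the groups, as loss of a few exons can leave other peaks open.

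Of 61581 peaks in the deposited table, 31 carried one of both symbols in the deposited annotation, which assigns each peak to its nearest gene: 23 peaks of Arid5b and 8 of Arid5a. Arid5b was chosen by its number of peaks that passed the test between KO and WT in these same libraries, and Arid5a as its paralogue. Their KO-against-WT values below are therefore a description, with no p-value, and nothing is read from them as evidence.

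Total counts in peaks ranged from 673398 to 2184717 in KO libraries and from 1025283 to 2081740 in WT libraries, with a median of 5 to 17 counts per peak. The shallowest library was Sample_2270_KO. Among 20 pairs of libraries of one group, 8 pairs differed by no more than sampling noise over peaks (chi-square per degree of freedom 0.891 to 0.996), against 1.02 to 1.26 in the other pairs of one group and 1.06 to 1.49 between groups. At most 5.84% of peaks held identical counts in such a pair, so none was a copied column. That share cannot tell libraries of a single preparation from separate ones, as it was 5.79% between Sample_2269_KO and Sample_2273_WT. The 10 libraries were kept as 5 and 5, and every SD, SE and p-value takes them as separate, which was not tested. Results in which libraries within sampling noise were merged and counted once, in chains that left 2 KO and 2 WT, are given where they end a call. T cell markers were open in both groups, with 898 to 932 summed CPM in KO against 866 to 935 CPM in WT over 7 of 7 genes. B cell markers summed to 30.0 to 37.4 CPM in KO against 34.5 to 41.5 CPM in WT, with no peak at Ms4a1, Pax5 or Ebf1. Other lists were higher. Myeloid markers summed to 203 to 245 CPM in KO against 194 to 227 CPM in WT. NK and innate lymphoid markers summed to 183 to 241 CPM in KO against 177 to 197 CPM in WT. Whether other cells were present was not tested. CPM are counts relative to each library's total over tested peaks, scaled by the TMM method, and fold changes are values fitted by edgeR for KO over WT.

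Arid5b lies on the minus strand of chromosome 10 (mm10, chr10:68095593-68278726, 183134 bp) and Arid5a on the plus strand of chromosome 1 (chr1:36307733-36324029, 16297 bp). The RefSeq start-site windows of both genes (GRCm38.p6, 250 bases before to 50 after the start) are shown because only one of them lies in open chromatin. Capitals mark the only match to the motifs searched.

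Arid5b, chr10:68278677-68278976, minus strand: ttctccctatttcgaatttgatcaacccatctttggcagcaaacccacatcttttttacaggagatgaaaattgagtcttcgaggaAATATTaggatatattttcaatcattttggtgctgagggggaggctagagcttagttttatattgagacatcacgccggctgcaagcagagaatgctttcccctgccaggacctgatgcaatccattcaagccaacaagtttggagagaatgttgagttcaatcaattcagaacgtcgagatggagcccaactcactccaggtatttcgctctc
Arid5a, chr1:36307483-36307782, plus strand: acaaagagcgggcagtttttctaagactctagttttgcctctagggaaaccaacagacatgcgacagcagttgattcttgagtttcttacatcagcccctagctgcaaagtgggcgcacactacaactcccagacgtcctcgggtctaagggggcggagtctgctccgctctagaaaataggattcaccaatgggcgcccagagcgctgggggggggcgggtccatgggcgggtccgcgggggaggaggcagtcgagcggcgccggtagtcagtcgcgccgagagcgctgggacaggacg

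The Arid5b window overlapped no peak, and the nearest Arid5b peak began 800 bp away. It covers a single start. The deposited annotation names Arid5b transcripts with 9, 8 and 6 introns and places a peak at 141955 bp in a 5′ UTR. Other starts of Arid5b were not examined. The Arid5a window had 245 of its 300 bases inside the start-site peak. Among the RefSeq windows of tested genes, 9311 of 12649 (73.6%) overlapped a peak. GC content was 43.3% in the Arid5b window and 60.3% in the Arid5a window, with a median of 52.7% over 32851 windows. The motifs were searched on both strands: AATATT for ARID5B, TGTGGT for RUNX, AGGAAG for ETS, CTTTGA for TCF/LEF, TGANTCA for AP-1, AGATAA for GATA and TGGAAA for NFAT. AATATT occurred once, at position 87 of the Arid5b window, and 6.81% of all windows hold it. No motif matched in the Arid5a window, and none of the other 6 matched in the Arid5b window; 7.81% (AP-1) to 35.4% (ETS) of all windows hold one of those. These matches describe letters only.

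Arid5b was more accessible in KO when all its peaks were summed. Over its 23 peaks it had 369, 434, 348, 405 and 370 CPM in KO libraries Sample_2268_KO to Sample_2272_KO, against 266, 251, 250.2, 250.2 and 248 CPM in WT libraries Sample_2273_WT to Sample_2277_WT. Every KO library lay above every WT library, and the WT libraries lay within a narrow range. The means were 385 ± 34.0 CPM in KO against 253 ± 7.43 CPM in WT (SD, n = 5), and the fitted log2 fold change was 0.62 ± 0.055 (SE), a 1.53-fold difference that ranked 92 of 12489 tested genes. It was among the genes called higher by edgeR's quasi-likelihood test at an adjusted p under 0.05, as were 1.66% of all tested genes. With the libraries within sampling noise merged, the log2 fold change was 0.68 and the call stayed.

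Of the 23 Arid5b peaks, 15 held enough counts to test, and the 8 others carried 6.61% of the gene's counts in KO and 7.34% in WT. Through the gene, 7 tested peaks were called higher in KO, none was called lower and 8 were not called. Over all 34910 tested peaks, 2.94% were called higher and 0.911% lower. The rule that chose Arid5b used this count, so nothing is read from it. The fitted log2 fold change was positive in 14 of the 15 tested peaks, from -0.06 to 2.03, with a median of 0.52 beside -0.01 over all tested peaks. In 6 of the 15, the lowest KO library exceeded the highest WT library, as it did in 2.78% of all tested peaks. Only 4 of the 7 calls were also made by DESeq2, 3 were made with all libraries thinned to the smallest total, and 2 with libraries within sampling noise merged.

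**Figure D1:**
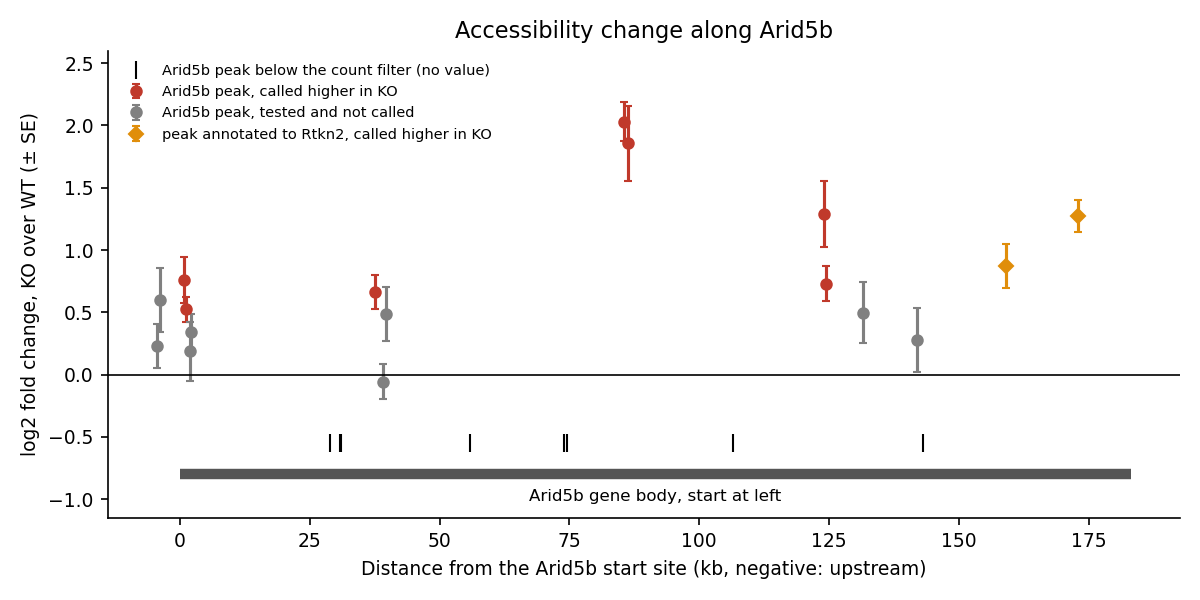
Fitted log2 fold change of KO over WT (± SE) for the 15 tested Arid5b peaks and both peaks annotated to Rtkn2 inside the gene, against distance from the Arid5b start site in kb. The tall pair near 86 kb reached 2.03 and 1.86, while most tested peaks elsewhere lay between 0 and 1; ticks mark the 8 peaks below the count filter.

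The largest differences came from a pair of peaks in an intron that the deposited annotation numbers 2 of 8 in its transcript. Peaks nearer the start are numbered in another transcript (intron 2 of 9). These numbers therefore need not count introns from the start used for distances here. The first, 85502 bp downstream of the start (chr10:68192726-68193224), had 38.4, 46.9, 40.0, 45.7 and 42.9 CPM in KO libraries, against 12.0, 9.93, 8.36, 10.0 and 13.5 CPM in WT libraries. The lowest KO library stood well clear of the highest WT library. The means were 42.8 ± 3.64 CPM in KO against 10.8 ± 2.00 CPM in WT (SD, n = 5), a 4.09-fold difference (log2 fold change 2.03 ± 0.16 SE). It rested on 24 to 86 counts per KO library and 11 to 20 per WT library.

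The second peak of the pair, 86371 bp from the start (chr10:68192189-68192355), was lower throughout. Its values were 13.6, 13.6, 13.3, 12.2 and 10.5 CPM in KO libraries, against 6.52, 3.31, 3.13, 1.43 and 3.38 CPM in WT libraries. The groups again did not overlap. The difference was 3.62-fold (log2 fold change 1.86 ± 0.30 SE), on only 2 to 6 counts per WT library. Together the pair had 55.4 ± 3.62 CPM in KO against 14.3 ± 3.21 CPM in WT, a ratio of 3.87. The first peak took 11.1 ± 0.498% of all Arid5b counts in KO and 4.25 ± 0.785% in WT, and the second 3.299 ± 0.434% in KO and 1.39 ± 0.674% in WT.

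The sum was also higher without that pair. Without it, the other 21 peaks had 330 ± 30.6 CPM in KO against 239 ± 5.96 CPM in WT (ratio 1.38), with KO libraries from 295 to 373 CPM and WT libraries from 231 to 248 CPM. The 8 tested peaks that were not called had 136 ± 15.1 CPM in KO against 112 ± 3.41 CPM in WT (ratio 1.21). These groups did not overlap either, with 123 to 160 CPM in KO against 107 to 116 CPM in WT. Peaks outside promoters had 261 ± 29.7 CPM in KO against 164 ± 10.6 CPM in WT (ratio 1.59), and the 4 promoter peaks 124 ± 7.93 CPM in KO against 88.6 ± 5.91 CPM in WT (ratio 1.40).

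**Figure D2:**
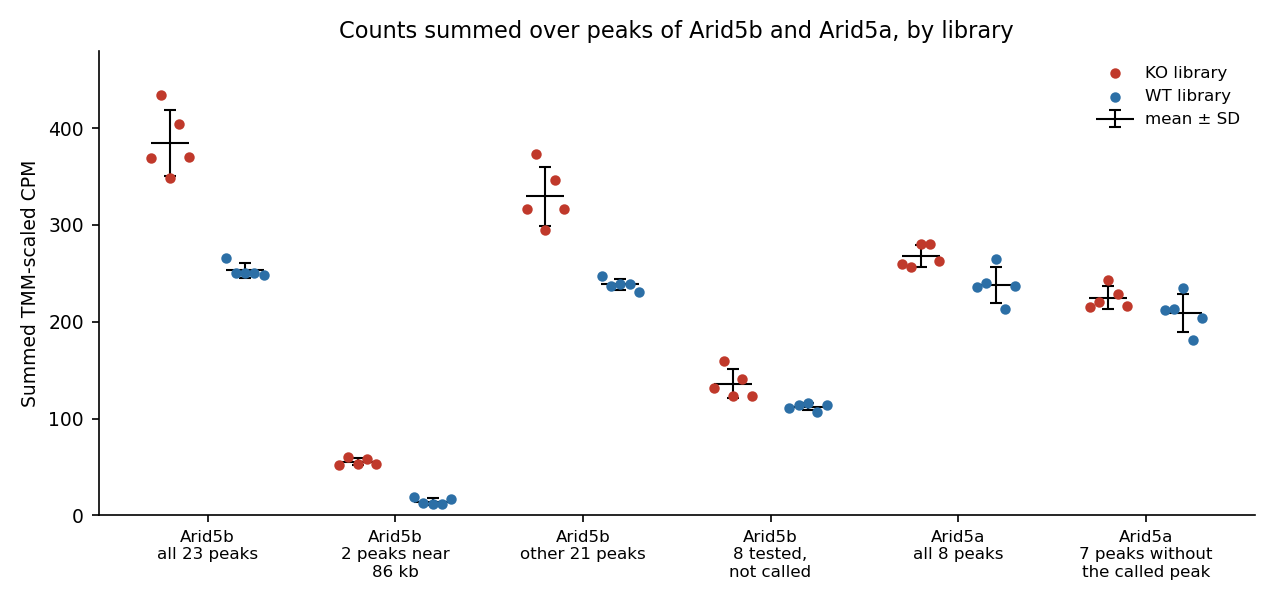
TMM-scaled CPM summed over groups of peaks, one point per library with mean ± SD, KO left of WT. Arid5b sums are separated between KO and WT with all 23 peaks and with 21 peaks, whereas Arid5a sums of KO (257 to 280 CPM) and WT (213 to 265 CPM) overlap.

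A second intronic pair, in intron 3 of 8 of the transcript that numbered the first pair, was also higher in KO. The peak at 124044 bp (chr10:68154468-68154682) had 12.0, 17.7, 11.7, 17.0 and 9.48 CPM in KO libraries, against 6.52, 6.07, 6.79, 5.72 and 2.03 CPM in WT libraries. The groups were apart, and Sample_2277_WT was the lowest. The fitted difference was 2.45-fold (log2 fold change 1.29 ± 0.27 SE). Its neighbour at 124354 bp (chr10:68153914-68154372) had 29.6, 36.5, 23.3, 37.2 and 34.9 CPM in KO libraries, against 21.7, 20.97, 20.9, 22.2 and 16.2 CPM in WT libraries. This was a smaller, 1.66-fold difference (0.73 ± 0.14 SE), with Sample_2270_KO close to the WT libraries.

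Closer to the start, in the same annotated intron as the pair with the largest differences, neighbouring peaks differed among themselves. The peak at 37550 bp (chr10:68240683-68241176) had 45.6, 45.9, 25.0, 35.6 and 37.4 CPM in KO libraries, against 22.8, 27.6, 21.9, 25.0 and 23.6 CPM in WT libraries. It was called 1.58-fold higher, but Sample_2270_KO fell within the WT range. The next peak, at 39174 bp (chr10:68239112-68239552), had means close together, with 29.5 ± 5.57 CPM in KO against 29.3 ± 2.73 CPM in WT (log2 fold change -0.06 ± 0.14 SE). It was the one tested Arid5b peak with a negative value, which turned positive without Sample_2272_KO (0.11) and with merged libraries (0.015). It took 7.69 ± 1.49% of the gene's counts in KO and 11.6 ± 1.11% in WT. The peak beyond it, at 39699 bp, had 14.9 ± 2.22 CPM in KO against 10.2 ± 1.67 CPM in WT; its groups did not overlap but it was not called.

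Of the 4 promoter peaks, which all lie downstream of the start, 2 were called higher; over all tested promoter peaks 1.26% were. The strongest Arid5b peak in both groups, at 1240 bp (chr10:68277020-68277486), had 59.2, 64.7, 75.0, 59.5 and 64.4 CPM in KO libraries, against 46.7, 39.7, 44.4, 50.1 and 40.5 CPM in WT libraries. The groups were apart, at 64.6 ± 6.39 CPM in KO against 44.3 ± 4.30 CPM in WT, a 1.44-fold difference (log2 fold change 0.52 ± 0.10 SE). At 850 bp (chr10:68277693-68277876) the values were 20.8, 28.2, 13.3, 23.4 and 19.96 CPM in KO libraries, against 10.9, 13.2, 9.40, 12.9 and 17.6 CPM in WT libraries. That peak, 1.69-fold higher, was called although Sample_2270_KO lay below Sample_2277_WT, and it was the last one inside the threshold. The first one outside it was the distal peak at -3876 bp, with 10.6 ± 2.48 CPM in KO against 6.998 ± 1.92 CPM in WT (1.51-fold).

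Outside promoters, 5 of the 8 tested intronic Arid5b peaks were called higher, and neither of the 2 distal ones; over all tested peaks outside promoters the share was 4.39%. The remaining tested peaks that were not called had positive values: log2 fold changes of 0.23 at -4374 bp, 0.19 at 1865 bp, 0.34 at 2060 bp, 0.50 at 131555 bp and 0.28 at 141955 bp, the last in the 5′ UTR class. That at 131555 bp was about as large as the called difference at 1240 bp. The 8 untested peaks were all intronic, none averaged more than 4.78 CPM in either group, and together they had 24.2 ± 5.86 CPM in KO against 19.2 ± 5.23 CPM in WT. Called peaks were wider than the other tested ones, with a median width of 459 bp against 213 bp, and 267 bp over all tested peaks. Whether width goes with the difference itself or with the counts available to the test was not tested.

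**Figure D3:**
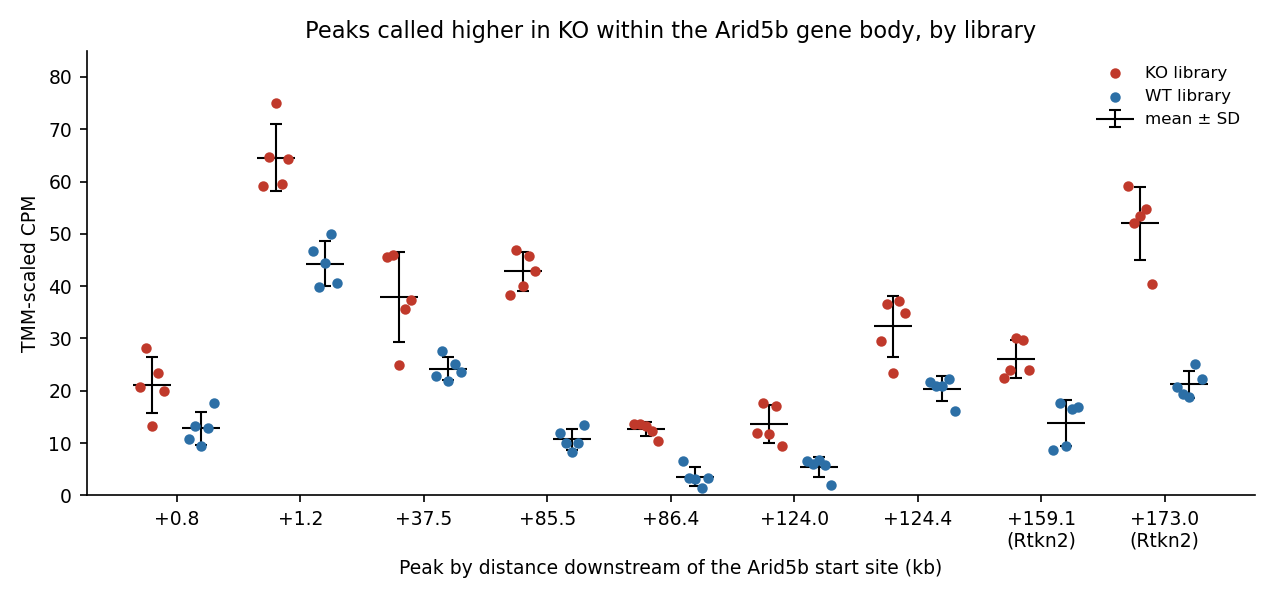
TMM-scaled CPM of each library, with mean ± SD, for the 7 Arid5b peaks called higher in KO and both peaks annotated to Rtkn2 inside the gene, KO left of WT. KO and WT points overlap only at the peaks 850 and 37550 bp from the start.

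Arid5a showed a smaller difference. Summed over its 8 peaks, it had 260, 257, 280.0, 280.2 and 262 CPM in KO libraries, against 236, 240.1, 265, 213 and 236 CPM in WT libraries. The groups overlapped through Sample_2275_WT. The means were 268 ± 11.4 CPM in KO against 238 ± 18.6 CPM in WT (SD, n = 5), and the log2 fold change of 0.16 ± 0.059 (SE) did not pass the threshold. Of its 5 tested peaks, 1 was called higher and none lower, where 2.94% of all tested peaks were called higher and 0.911% lower. The median log2 fold change was 0.08. Its 3 untested peaks carried 6.53% of its counts in KO and 6.58% in WT.

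The called peak lies upstream of Arid5a, at -10689 bp from its start (chr1:36296566-36297044, distal intergenic). It had 44.8, 36.5, 36.7, 51.0 and 46.4 CPM in KO libraries, against 23.9, 27.1, 30.3, 31.5 and 32.4 CPM in WT libraries. No WT library reached any KO library, at 43.1 ± 6.36 CPM in KO against 29.0 ± 3.51 CPM in WT, a 1.53-fold difference (log2 fold change 0.62 ± 0.12 SE). This call was not made by DESeq2, with thinning to the smallest total or with libraries within sampling noise merged. Without this peak, Arid5a had 225 ± 11.8 CPM in KO against 209 ± 19.2 CPM in WT.

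The start-site peak of Arid5a (chr1:36307538-36308190) held the largest part of its counts, 39.6 ± 3.29% in KO and 42.5 ± 2.98% in WT. Its values were 103, 115, 112, 105 and 94.8 CPM in KO libraries, against 110, 95.5, 106, 95.1 and 98.6 CPM in WT libraries. The groups overlapped throughout, with a log2 fold change of 0.05 ± 0.090 (SE). The promoter peak at 1863 bp also overlapped, with 58.4 ± 13.2 CPM in KO against 53.6 ± 7.08 CPM in WT. Farther upstream, the peak at -12991 bp had 30.3 ± 4.37 CPM in KO against 26.4 ± 4.88 CPM in WT, and that at -13949 bp 12.6 ± 2.58 CPM in KO against 13.0 ± 3.18 CPM in WT. The sign of the fold change at 1863 and -13949 bp depended on the setting. Summed over peaks outside promoters alone, Arid5a passed the threshold (log2 fold change 0.32), as it did without its start-site peak (0.23). Both of these sums include the called peak at -10689 bp (43.1 CPM in KO against 29.0 CPM in WT). All peaks outside promoters had 104 ± 8.74 CPM in KO against 83.5 ± 9.69 CPM in WT. Those sums were not tested without the called peak. Per kilobase of peak, Arid5a was the more accessible of both genes in either group, at 118 CPM per kb in KO and 105 CPM per kb in WT, while Arid5b had 76.5 CPM per kb in KO and 50.3 CPM per kb in WT.

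**Figure D4:**
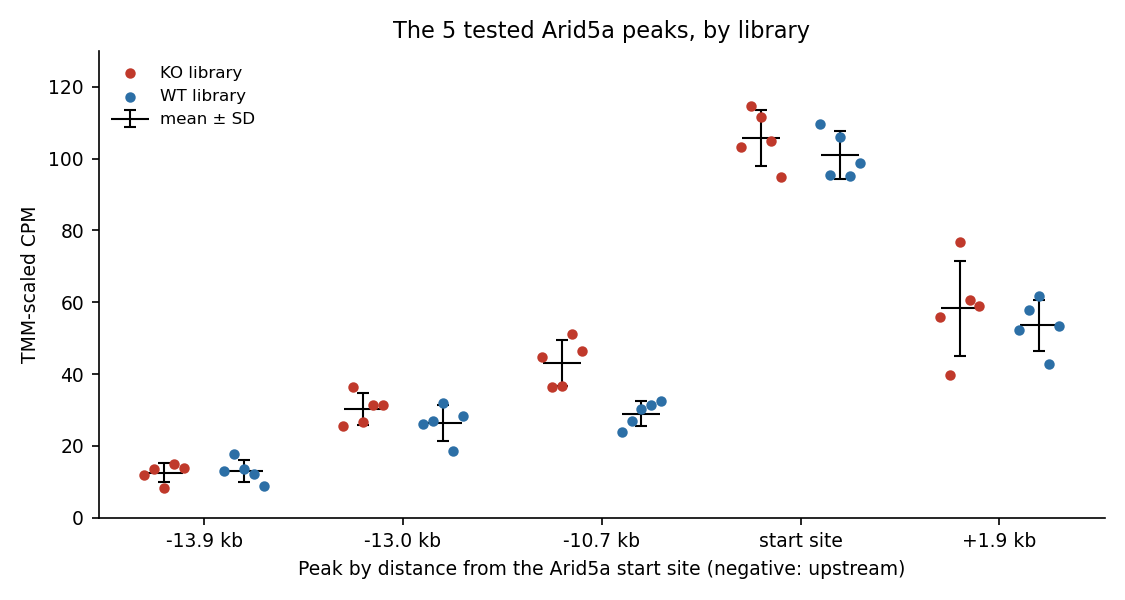
TMM-scaled CPM of each library, with mean ± SD, for the 5 tested Arid5a peaks by distance from the start site, KO left of WT. Only at -10.7 kb do all KO points (36.5 to 51.0 CPM) lie above all WT points (23.9 to 32.4 CPM).

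Peaks annotated to other genes were not counted in the choice of Arid5b, and those near it were tested. Those inside its gene body belong to the chosen locus, so their p-values are not independent of that choice. Inside the Arid5b gene body, 2 intronic peaks are assigned to Rtkn2 because its start is the nearest gene start in that annotation. Both rose in KO. The peak 173006 bp from the Arid5b start (chr10:68105264-68105720) had 59.2, 52.1, 53.3, 54.8 and 40.4 CPM in KO libraries, against 20.6, 19.3, 18.8, 25.0 and 22.3 CPM in WT libraries. All 5 KO libraries exceeded all WT libraries, and the peak rose 2.41-fold (log2 fold change 1.27 ± 0.13 SE, adjusted p = 2.53e-12 by edgeR's quasi-likelihood test over all peaks).

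The other, at 159077 bp (chr10:68119293-68119649), had 22.4, 24.0, 30.0, 29.8 and 24.0 CPM in KO libraries, against 8.69, 17.7, 9.40, 16.4 and 16.9 CPM in WT libraries. It rose 1.83-fold with the groups apart (edgeR adjusted p = 0.000288), a call that ended with thinning (0.0785) and with merged libraries (0.171). The peaks inside the Arid5b body under either symbol, 23 in all, had 432 ± 28.6 CPM in KO against 264 ± 9.47 CPM in WT. Of the Rtkn2 sum, 228 ± 7.82 CPM in KO against 165 ± 11.7 CPM in WT over 15 peaks, those 2 peaks gave 78.0 ± 8.27 CPM in KO against 35.0 ± 5.95 CPM in WT. The other 13 Rtkn2 peaks had 150 ± 4.61 CPM in KO against 130.1 ± 7.87 CPM in WT.

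In the flanks of Arid5b few peaks could be tested. Within 500 kb of the gene body, 47 peaks of other genes included 16 that were tested, of which none was called higher, 1 was called lower and 15 were not called; 1 had an unadjusted p under 0.05. With 2.94% of all tested peaks called higher, a count of 0 among 16 is near that share. The lower one was a distal peak of Tmem26, a membrane protein gene, 354552 bp away, at 6.09 ± 1.54 CPM in KO against 10.8 ± 3.96 CPM in WT (0.520-fold, edgeR adjusted p = 0.0257). Its groups overlapped, and the call ended without any of Sample_2268_KO, Sample_2271_KO, Sample_2272_KO, Sample_2274_WT and Sample_2276_WT (adjusted p 0.0663 to 0.189) and with DESeq2, limma-voom or merged libraries. The median log2 fold change of these 16 peaks was 0.05. DESeq2 and limma-voom called none of these peaks in either direction.

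Around Arid5a, 47 of 68 peaks of other genes within 500 kb were tested, of which 4 rose, 1 fell and 42 were not called, beside 2.94% higher and 0.911% lower over all tested peaks. An unadjusted p under 0.05 was found for 10 of the 47. Neurl3, which encodes a ubiquitin ligase, rose at a pair of promoter peaks 34904 and 34085 bp from the Arid5a gene. Those had 19.9 ± 3.62 CPM in KO against 12.6 ± 1.67 CPM in WT (1.62-fold, edgeR adjusted p = 0.00998), and 18.9 ± 3.11 CPM in KO against 11.6 ± 2.72 CPM in WT (1.61-fold, edgeR adjusted p = 0.0206). Both calls ended without Sample_2271_KO or Sample_2277_WT (adjusted p 0.0517 to 0.111), and the second also without Sample_2272_KO (0.117).

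Zap70, the kinase that binds the T cell receptor complex, rose at an intronic peak (27.7 ± 3.25 CPM in KO against 17.5 ± 1.81 CPM in WT, 1.58-fold, edgeR adjusted p = 0.0025). Its 5′ UTR peak had 41.8 ± 9.59 CPM in KO against 30.2 ± 8.66 CPM in WT and passed narrowly (1.35-fold, edgeR adjusted p = 0.0479). That call ended in 14 of 18 other settings, among them without Sample_2268_KO, Sample_2269_KO, Sample_2271_KO, Sample_2272_KO, Sample_2273_WT, Sample_2275_WT or Sample_2276_WT (adjusted p 0.0532 to 0.235). Hs6st1, a heparan sulphate sulphotransferase gene, fell at a promoter peak to 10.8 ± 1.36 CPM in KO, against 18.3 ± 2.604 CPM in WT (0.584-fold, edgeR adjusted p = 0.00649). DESeq2 and the merged libraries called none of these 5 peaks.

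No other gene of the ARID family passed the test. Of 13 other genes with this domain, 12 were tested and none was called in either direction by edgeR, DESeq2 or limma-voom (none at an unadjusted edgeR p under 0.05), where 1.66% of all genes were called higher and 0.504% lower. A count of 0 among 12 is near those shares. Their log2 fold changes ran from -0.004 to 0.11 with a median of 0.04, beside -0.004 over all tested genes. Arid1a, a subunit of the BAF remodelling complex, had 389 ± 25.7 CPM in KO against 384 ± 33.9 CPM in WT, and its paralogue Arid1b 549 ± 15.2 CPM in KO against 539 ± 18.2 CPM in WT. Jarid2, a partner of Polycomb repressive complex, had 396 ± 12.8 CPM in KO against 395 ± 9.26 CPM in WT. The smallest adjusted p was that of the histone demethylase gene Kdm5a (147 ± 12.5 CPM in KO against 134 ± 10.2 CPM in WT, edgeR adjusted p = 0.600).

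**Figure D5:**
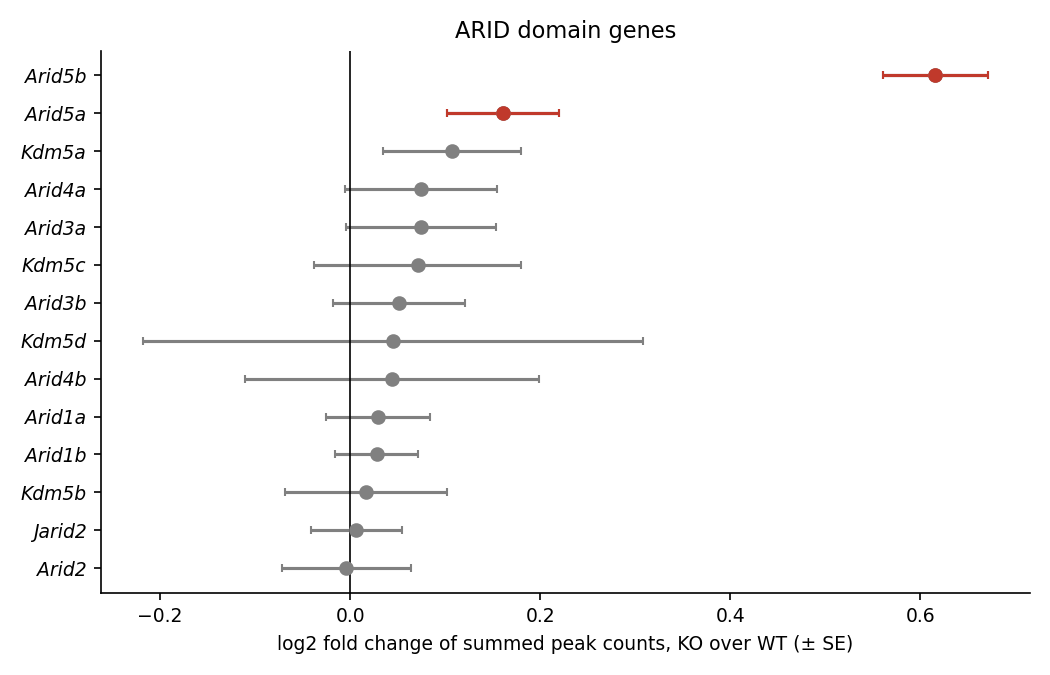
Fitted log2 fold change of summed peak counts, KO over WT (± SE), for Arid5b, Arid5a and the 12 other tested ARID domain genes. Arid5b stands at 0.62 and Arid5a at 0.16, while the others lie between -0.004 and 0.11.

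Genes known to work with ARID5B or ARID5A were examined from lists. None of 10 tested genes of PHF2 and other histone H3 lysine 9 demethylases was called by edgeR, DESeq2 or limma-voom (none at an unadjusted edgeR p under 0.05). Phf2, the partner of ARID5B, had 142 ± 15.97 CPM in KO against 146 ± 4.58 CPM in WT. Among genes whose mRNAs ARID5A protects, their receptors and the RNA regulators that oppose it, none of 10 tested was called by these 3 tools, and 2 had an unadjusted edgeR p under 0.05. Those were Tbx21, the Th1 factor, with 59.6 ± 3.93 CPM in KO against 49.9 ± 3.19 CPM in WT (edgeR adjusted p = 0.292), and Rc3h1, the gene of Roquin-1, with 102 ± 10.9 CPM in KO against 116 ± 14.5 CPM in WT (0.369). Zc3h12a, the gene of Regnase-1, had 205 ± 17.8 CPM in KO against 210 ± 12.9 CPM in WT. Il6 had no annotated peak. For both lists, a count of 0 among 10 is near the share over all tested genes (1.66% called higher, 0.504% lower).

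Of 9 tested genes of the TAL1 circuit and related leukaemia genes, Gata3 alone was called. Over all tested genes, 1.66% were called higher and 0.504% lower. The median log2 fold change of these 9 genes was -0.002, beside -0.004 over all tested genes. Gata3, a factor of T cell development and Th2 cells, rose to 379 ± 30.0 CPM in KO, against 318 ± 18.4 CPM in WT (log2 fold change 0.24 ± 0.054 SE, edgeR adjusted p = 0.00458). Its groups overlapped, and the call ended on promoter peaks only (log2 fold change 0.06), without its strongest peak and with merged libraries. Runx1, a member of that circuit, had 461 ± 31.1 CPM in KO against 469 ± 18.6 CPM in WT, and Myb 105 ± 12.3 CPM in KO against 108 ± 14.8 CPM in WT. Tal1 itself had 4.74 ± 1.15 CPM in KO against 5.29 ± 2.51 CPM in WT, too few counts to test.

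Markers of other cells were examined because a bulk library cannot tell a change in cell makeup from a change per cell. None of the tested markers of CD8 T cells (2), B cells (1), myeloid cells (3), NK and innate lymphoid cells (4) or activated and memory T cells (4) was called by edgeR, DESeq2 or limma-voom, and 2 of the last had an unadjusted edgeR p under 0.05. Over all tested genes, 1.66% were called higher and 0.504% lower. Of 5 tested regulatory T cell markers, 2 were called higher. Those were Ctla4 (209 ± 10.8 CPM in KO against 151 ± 6.63 CPM in WT, edgeR adjusted p = 7.42e-07) and Ikzf2 (80.0 ± 4.13 CPM in KO against 62.2 ± 8.15 CPM in WT, edgeR adjusted p = 0.0187). Il2ra (165 ± 19.6 CPM in KO against 162 ± 11.1 CPM in WT) and Tnfrsf18 (56.4 ± 6.07 CPM in KO against 52.3 ± 3.53 CPM in WT) were not called. The sort had removed CD25-positive cells, and Foxp3, the defining factor of regulatory T cells, had 8.83 ± 3.54 CPM in KO against 7.22 ± 1.72 CPM in WT. Its fitted log2 fold change of 0.48 ± 0.28 (SE), near that of Ctla4 (0.48 ± 0.063), was not called at these low counts (edgeR adjusted p = 0.502). On promoter peaks alone Ctla4 turned direction (log2 fold change -0.063) and was not called. The 5 markers summed to 478 to 557 CPM in KO against 400 to 453 CPM in WT. The Ikzf2 call ended in 11 of 21 other settings (adjusted p up to 0.768), among them DESeq2, thinning, merged libraries and leaving out Sample_2272_KO, Sample_2273_WT, Sample_2274_WT or Sample_2275_WT (adjusted p 0.0504 to 0.0971). The part of such cells in the values of Arid5b was not tested.

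The genes most like Arid5b over the 10 libraries were named by the smallest root mean square difference of centred log2 CPM. They were Zfp608 (0.107), Ctla4 (0.119), Troap (0.122), F12 (0.126) and Mppe1 (0.127), with a median of 0.352 over 12404 genes. These 5 had log2 fold changes from 0.41 (F12) to 0.58 (Mppe1). Centring over both groups keeps the KO-against-WT difference by which Arid5b was chosen. This ranking therefore largely restates that difference and is no separate result. For Arid5a the first 4 were Lef1 (0.0486), Sh3bp5 (0.0536), Enpp1 (0.0542) and Satb1 (0.0544), with a median of 0.202. Zfp608 had 326 CPM in KO against 236 CPM in WT, and Lef1 had 807 CPM in KO against 748 CPM in WT.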

How the data were processed

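The authors deposited whole-number read counts, not normalized, for one common peak set, and a table with the position, class and nearest gene of each nuclear peak. Libraries were made from 60000 cells each and sequenced as single reads of 75 bp, per the labels' protocols. Per the submitters' processing notes, tools included Bowtie2 2.3.5, MACS2 2.1.2 and ChIPseeker 1.18.0 with build mm10; duplicate handling and shifts of reads to the cut site are not given in the sources used here. Removal of duplicates would cap dense peaks in deep libraries.

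Counts were tested with edgeR 4.0.16 in R 4.3.3 (filterByExpr by group, TMM on the 34910 peaks kept, glmQLFit and glmQLFTest, no covariate), with Benjamini-Hochberg adjustment over all tested peaks and a threshold of 0.05; the procedure was tested on simulated data. Gene values are counts summed over the peaks of one deposited symbol (12489 genes tested) with the peak table's scaling. Fitted folds include a small prior count, and SEs follow from the test's F value. Groups were called apart on log2 CPM with a prior count of 2. Other settings were DESeq2 1.42.0, limma-voom (limma 3.58.1), upper-quartile scaling, no count filter, leaving out libraries, thinning, parts of each gene's peaks and other windows; merging libraries and scaling on all peaks were added after seeing the data. Named were all member peaks, up to 4 genes per list by adjusted p, called neighbouring peaks and the 5 most alike genes; the named level genes Arid1a, Arid1b, Jarid2, Phf2, Zc3h12a, Runx1, Myb, Tal1, Satb1 and Foxp3 were chosen for their role after their values were seen. Members and lists were chosen with earlier results of these data known. Some genes that these rules name are not reported here.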

Additional observations from a re-analysis of the deposited data

Results flagged for a closer look

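Single libraries stood apart from the other 4 of their group in 4 of 60 groups examined with Dixon's criterion, which chance alone meets in about 1 of 20. At the Arid5b peak 39174 bp from the start, Sample_2272_KO had 19.96 CPM, against 29.6 to 33.4 CPM in the other KO libraries. Sample_2277_WT was low at both peaks of an intronic Arid5b pair. It had 2.03 CPM at 124044 bp (others 5.72 to 6.79 CPM) and 16.2 CPM at 124354 bp (others 20.9 to 22.2 CPM). In the Arid5b sum, Sample_2273_WT had 266 CPM, against 248 to 251 CPM in the other WT libraries. The 7 Arid5b calls were also made without any one library.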

How the results depend on the processing

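No paired analysis was possible because the libraries carry running numbers that no KO library shares with a WT library. Peaks called higher (1027) and lower (318) became 478 and 41 with DESeq2, 236 and 65 with libraries thinned to the smallest total, and 288 and 22 with libraries within sampling noise merged. Genes called higher (207) and lower (63) became 88 and 15, 58 and 13, and 45 and 7 in those settings, and 31 were lower without the 3 shallowest libraries. With 1 library left out, genes called higher ranged from 128 (without Sample_2271_KO) to 204. The 7 Arid5b calls became 4, 3 and 2, the 2 Rtkn2 calls inside the gene 1 with thinning and 1 merged, and the Arid5a call 0 in all 3 settings. The 1 call outside Arid5b became 0 in those 3, with limma-voom and within 200 kb, 2 without the 3 shallowest libraries, and 0 to 1 with 1 library left out. The 5 calls around Arid5a became 0 in those 3 settings, 2 within 200 kb, and 2 to 6 with 1 library left out. The Arid5b sum stayed called in every setting, with log2 fold changes of 0.49 (promoter peaks only) to 0.68; the Arid5a sum passed only outside promoters (0.32) and without its strongest peak (0.23). Of 593 other recomputed values of single peaks and genes, 504 kept direction and side of the threshold, 73 lost the call and 16 turned direction, at 4 results. Ctla4 turned on promoter peaks only (-0.063); the other 3 are member peaks that were never called. The Arid5a peak at -13949 bp turned with DESeq2 (-0.026), upper-quartile scaling (-0.0067), no count filter and scaling on all peaks (-0.017 each) and merged libraries (-0.037), and ranged from -0.13 to 0.15 with 1 library left out. The Arid5a peak at 1863 bp turned with thinning (-0.16) and merged libraries (-0.088). The Arid5b peak at 39174 bp turned with merged libraries (0.015), and ranged from -0.13 to 0.11 with 1 library left out. The causes were not tested. Scaling on all peaks gave 976 higher and 402 lower peaks. Low counts limit the weakest peaks, where 1 read moves a value visibly. Motif shares in peak sequences were not run.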
